A study of Mus musculus with 9 samples.

Results

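Liver circular RNAs (circRNAs) of mice given metformin on a high fat diet were compared with those of mice on the same diet given saline. The comparison rests on 6 of the 9 arrays of the series, 3 in each group, chosen by their titles. All animals were male C57BL/6J mice, an inbred strain, sampled at 20 weeks of age. Feeding lasted 17 weeks in both groups, with 45% of the kilocalories coming from fat. After the first 12 weeks, at 15 weeks of age, they were gavaged daily for 5 weeks with saline or with metformin at 3 mg per kg body weight per day, so both groups carry the diet and the handling. Another group, on chow for 17 weeks with no gavage listed, gave the other 3 arrays; it entered the fit, and its values are printed beside some results. Each array held liver of 4 mice of a group mixed into 1 biological replicate, so the errors here are those between pools and are smaller than those between single mice. RNA came from 15 mg of liver, and 5 µg was treated for 30 minutes with RNase R, an exonuclease that digests linear RNA, before labelling.

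A circRNA forms when the spliceosome joins a downstream splice site back to an upstream one, and the closed molecule has no free ends and resists exonucleases. Several circles can come from one gene, and circles with a common back-splice end compete for that splice site. The liver is the main site of metformin's action on glucose output, and the drug is used against type 2 diabetes.

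Each array carried 30534 circRNA probes. Of these, 14043 were named by position, 13892 by an mmu_circ number, 2075 by a Fan code and 524 by an mmu-circRNA code. Each had a partner probe of the same name with the ending _neg, whose design the labels do not describe. The position-named circles spanned 100 to 29990 bases, and their coordinates are those of the probe names, in mouse build mm9. The files do not pair probes with genes and the gene table at hand is of another build, so circles are described by position and the label liver was not checked against marker genes. A level below is log2 of the processed intensity minus the array's 75th percentile, so 0 is a probe at that percentile. A difference is metformin minus high fat diet on that scale. In tissue RNA, fewer cells of a type and less RNA per cell cannot be told apart.

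The share of circRNA probes well above background averaged 83.4% ± 4.34 (SD, n = 3) for diet arrays and 84.5% ± 7.11 for metformin arrays, which differ by 1.12 percentage points (2-sided exact permutation test, p = 0.8, where 0.1 is the smallest p possible). Metformin replicate 3, which lay on a slide of its own, had the lowest share at 76.3%. High fat diet replicate 2 had 79.0%, and the other 4 arrays lay between 83.4% and 88.8%. The median absolute gap in level between 2 arrays was 0.20 to 0.27 within the diet group, 0.15 to 0.23 within the metformin group and 0.15 to 0.30 between groups, over 24546 circRNAs measured on all 9 arrays. The gaps between groups thus covered the range of those within groups.

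No circRNA passed an adjusted p under 0.05 (limma, 0 of 25828 tested, 0.0%). The smallest adjusted p was 0.205, for chr17:20492595-20497411, which had a value on 1 diet array only. Without adjustment, 1006 circRNAs (3.89%) had p under 0.05, and of these 598 stood higher with metformin (2.32%) and 408 lower (1.58%). Quantile normalization in place of 75th percentile scaling gave 526 higher and 490 lower, and with array weights the split was 685 and 323. Differences were centred near 0: the median was 0.03, the 25th and 75th percentiles were -0.10 and 0.14, and the 1st and 99th percentiles were -0.52 and 0.54. The median standard error was 0.166. For 24834 circRNAs (96.2%) the 95% interval of the difference lay within a 2-fold change either way, and for 17939 (69.5%) within a 1.5-fold change. For the other 994 the interval reached beyond a 2-fold change in at least one direction.

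**Figure D1:**
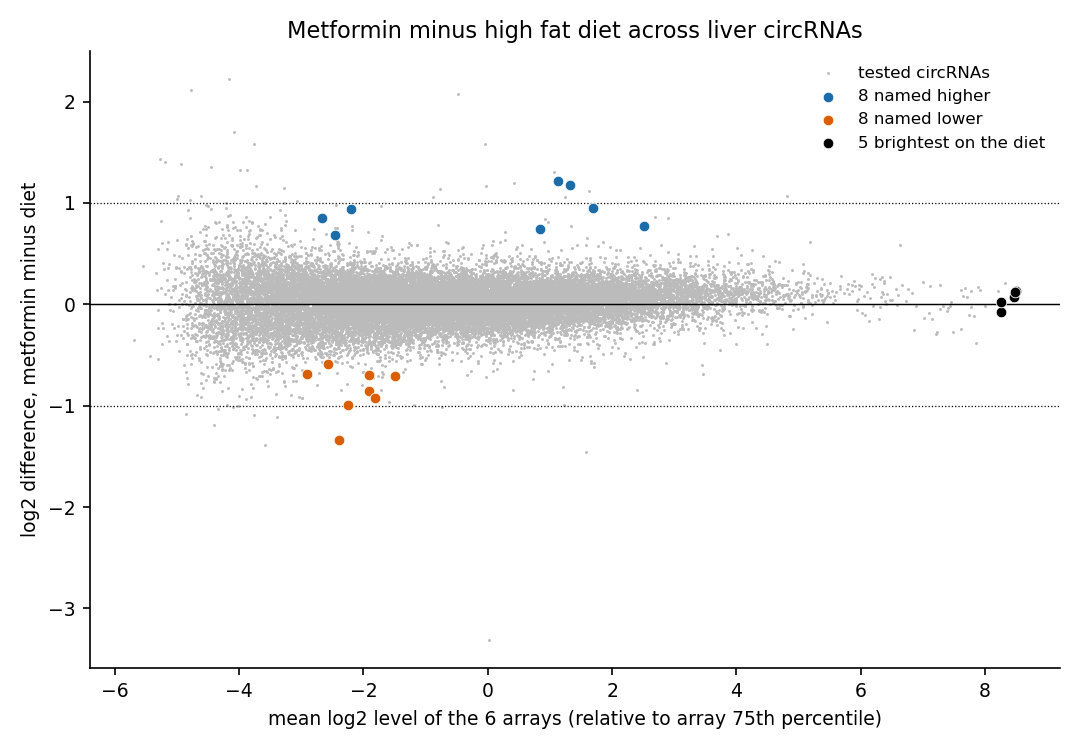
Difference between metformin and high fat diet for each tested circRNA (vertical, log2) against its mean level over the 6 arrays (horizontal, log2 relative to the array's 75th percentile), with dotted lines at a log2 difference of 1 and -1. Grey points are tested circRNAs, coloured points are the 16 circRNAs named by smallest p, and black points are the 5 with the highest diet intensity, which sit at the right near 0.

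The count depended on single arrays. It was 1762 without high fat diet replicate 1 (1248 higher, 514 lower) and 710 without high fat diet replicate 2. Without metformin replicate 1 the split turned, to 530 higher and 704 lower. Within the 1 array column that held both groups, high fat diet replicates 2 and 3 against metformin replicates 1 and 2, it was 1513, with 1203 higher and 310 lower, and the median difference was 0.08. The median local background in that column was 53 and 46 intensity units on the diet arrays and 34 and 29 on the metformin arrays, against 31 on high fat diet replicate 1 and 53 on metformin replicate 3; its part in these counts was not tested. Circles were also split into 4 equal classes by mean level. Of the 6457 in the brightest class 139 (2.15%) were higher and 25 (0.387%) lower at an unadjusted p under 0.05, so the share higher was near the 2.32% over all circRNAs and the share lower was under the 1.58%. The median difference there was 0.06, and with quantile normalization the counts were 94 and 38 and the median 0.03. In the dimmest class 259 were higher and 197 lower, and 7.06% had an unadjusted p under 0.05.

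The 8 circRNAs named with higher values had the smallest p among those well above background on all 6 arrays and measured on all 9. Their p-values chose them, so the values describe them and none was called. Of 24833 circRNAs measured on all 6 arrays, 1923 (7.74%) had groups that did not overlap, 1259 higher (5.07%) and 664 lower (2.67%). The 8 named as higher are among these, though overlap did not enter their choice.

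The circle mmu_circ_0012020 stood at 0.41, 1.14 and 0.63 on the 3 diet arrays and at 1.75, 2.10 and 1.89 with metformin. Every metformin array lay above every diet array, and the difference was 1.18 ± 0.209 (SE, limma, adjusted p = 0.440). Its partner probe gave nearly the same readings, 0.67, 1.04 and 0.56 on the diet and 1.74, 2.15 and 1.87 with metformin. The difference in the log2 ratio of circle to partner was 0.02 ± 0.114, and both probes separated the groups. Under limma's trended, robust variance model the partner passed the threshold (1.16 ± 0.178, adjusted p = 0.0423). The authors' deposited values, which depend on the partner reading as described below, gave the circle -1.60 ± 3.95, with 1 diet array and 1 metformin array at their floor. 

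The circle chr15:102009392-102019110, spanning 9718 bases, read 1.31, 0.96 and 1.40 on the diet and 2.20, 2.01 and 2.31 with metformin. The groups did not overlap, and the partner differed by 0.91 ± 0.164 beside 0.95 ± 0.173 for the circle (adjusted p = 0.483). A shorter circle of the same chromosome, chr15:82005527-82008017, read 0.50, 0.65 and 0.24 on the diet and 1.27, 1.28 and 1.07 with metformin (difference 0.74 ± 0.150, adjusted p = 0.648). It lies inside the span of chr15:82003183-82015863, the one other circle of its locus, which also read higher: 2.04, 1.67 and 1.89 on the diet and 2.29, 2.39 and 2.52 with metformin (0.54 ± 0.143, adjusted p = 0.969). Both circles of that locus had groups without overlap, and both partners differed in the same direction, by 0.75 ± 0.145 and 0.41 ± 0.137.

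The circle mmu_circ_0012643 was the most spread on the diet. It read -0.06, 1.21 and 0.40 there and 1.58, 1.74 and 1.89 with metformin, a difference of 1.22 ± 0.259 (adjusted p = 0.754), with high fat diet replicate 2 nearest to the metformin arrays. Its partner was tighter, at -1.09, -0.72 and -1.05 on the diet and 0.25, 0.81 and 0.79 with metformin. That difference, 1.57 ± 0.197, had the smallest p of all 22020 partner probes tested (limma, adjusted p = 0.0952). No partner probe was called (0.0%). The partner of mmu_circ_0012643 was called under 6 alternative settings, among them normexp background correction with 75th percentile scaling (1.43 ± 0.155, adjusted p = 8.48e-04) and leaving out metformin replicate 1 (1.75 ± 0.196, adjusted p = 0.0489). For the circle probe itself the adjusted p stayed above 0.05 under every alternative run, with 0.0573 without high fat diet replicate 2 as the lowest.

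For 2 of the 8 the partner differed far less than the circle. The circle mmu_circ_0014653 read -2.93, -2.31 and -2.75 on the diet and -1.54, -1.68 and -1.97 with metformin (0.94 ± 0.190, adjusted p = 0.648), while its partner differed by 0.21 ± 0.184. For chr6:112766585-112779625 the circle read -3.01, -3.30 and -2.99 on the diet and -1.80, -2.54 and -2.40 with metformin (0.85 ± 0.184, adjusted p = 0.754), and the partner by -0.06 ± 0.140. On chow this chromosome 6 circle read -3.05, -3.01 and -2.97, near its diet values. It was the exception: in 7 of the 8 higher and all 8 lower named circles the metformin mean lay nearer the chow mean than the diet mean did. The choice of circles by their diet readings favours that, so it carries no test. The remaining 2 circles, mmu_circ_0005885 and mmu_circ_0012260, differed by 0.77 ± 0.167 and 0.68 ± 0.148, and their partners by 0.88 ± 0.173 and 0.70 ± 0.164.

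Among the 8 circRNAs with lower values, chr12:104384512-104387291 had the largest difference. It read -1.46, -1.92 and -1.81 on the diet and -2.75, -3.08 and -3.38 with metformin, a difference of -1.34 ± 0.211 (adjusted p = 0.338). Every metformin array lay below every diet array. The partner read -1.48, -1.86 and -2.11 on the diet and -2.57, -2.91 and -2.81 with metformin, so it differed too, by -0.95 ± 0.229.

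The circle mmu_circ_0015831 was the tightest of the named ones, at -1.52, -1.40 and -1.51 on the diet and -2.33, -2.31 and -2.36 with metformin (difference -0.86 ± 0.144, adjusted p = 0.440). Its partner differed by -0.48 ± 0.171 and the log2 ratio by -0.38 ± 0.129. For mmu_circ_0012113 the readings were -1.23, -1.30 and -0.89 on the diet and -1.72, -1.93 and -1.91 with metformin (-0.71 ± 0.142), and the partner differed by -0.20 ± 0.175, less than the circle. The circle mmu_circ_0003685, at -1.54, -1.71 and -2.02 on the diet and -2.65, -3.08 and -2.52 with metformin, differed by -0.996 ± 0.202 and its partner by -0.99 ± 0.208. For chr3:88418429-88420576 metformin replicate 1 was the nearest to the diet: the circle read -1.49, -1.18 and -1.40 there and -1.88, -2.45 and -2.50 with metformin (-0.92 ± 0.192, adjusted p = 0.705). The last 3, mmu_circ_0002355, mmu_circ_0014429 and mmu_circ_0003564, differed by -0.58 ± 0.149, -0.69 ± 0.177 and -0.69 ± 0.180, each with adjusted p = 0.969.

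In all 16 the groups did not overlap, which the choice by p makes likely. Partner and circle had differences of one sign in 7 of the 8 higher and all 8 lower circRNAs. Among the 738 circRNAs with an unadjusted p under 0.05 and a tested partner, 613 (83.1%) had a partner with a difference of the same sign, against 69.9% of all 21289 pairs tested. Chow levels of the named circles are plotted beside the others but were not tested against them, because the same diet arrays chose the circles.

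**Figure D2:**
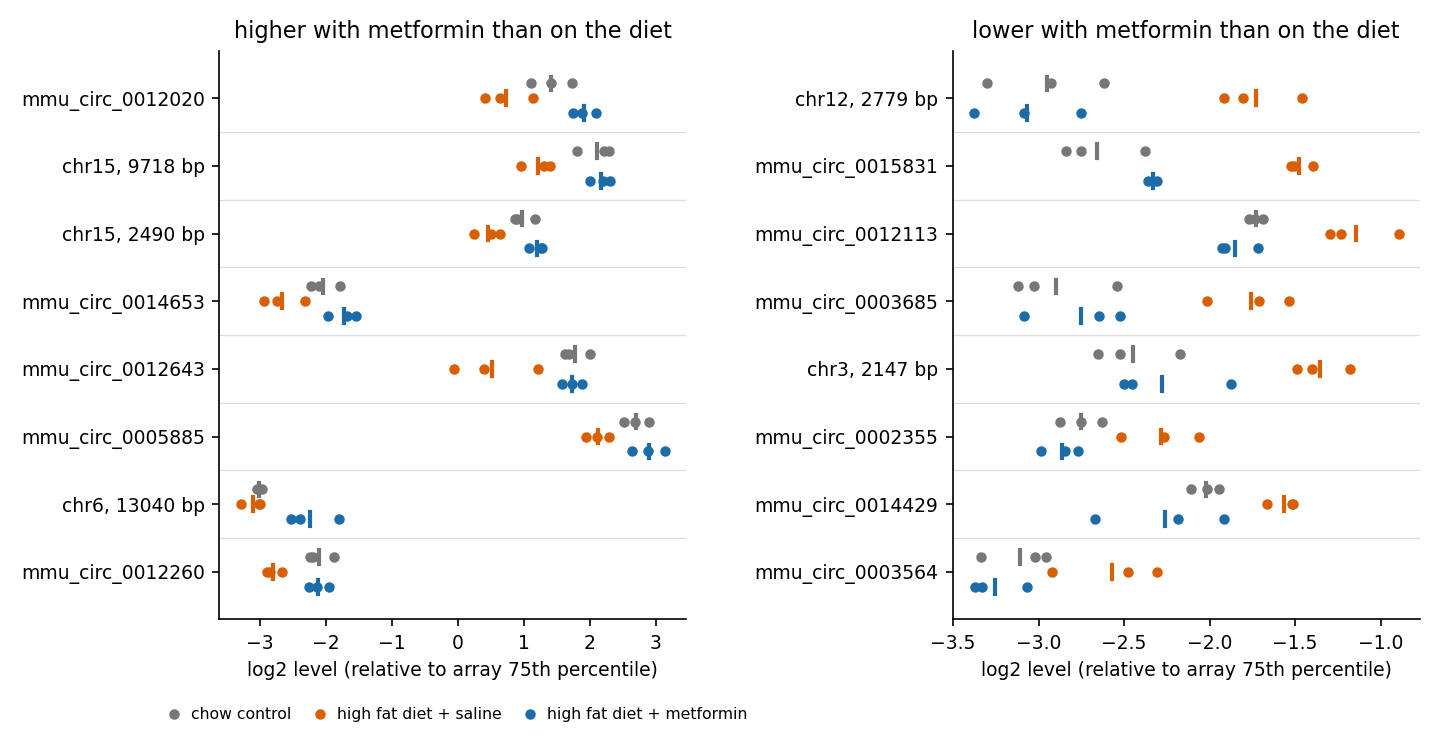
Levels of the 16 named circRNAs on each array (horizontal, log2 relative to the array's 75th percentile), 8 higher with metformin on the left and 8 lower on the right. Points are arrays, 3 per group, and vertical ticks are group means; the high fat diet points (orange) and metformin points (blue) of a circle do not overlap, and the left axis spans a wider range than the right one.

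Some larger differences lay outside that choice. A log2 difference beyond 1 was seen for 32 circRNAs measured on all 6 arrays, 22 higher and 10 lower, and 12 of these were well above background on all 6. The 12 include mmu_circ_0012020, mmu_circ_0012643 and chr12:104384512-104387291, already described. The others named here were singled out after their values were seen. The largest among the 12 was mmu_circ_0008920, where 1 array set the value: high fat diet replicate 1 read 8.56, the other diet arrays -1.96 and -1.56, and the metformin arrays -1.66, -1.59 and -1.64. Its difference was -3.31 ± 2.01, and its partner read -3.36 on the same diet array. The circle mmu_circ_0005717 read -2.38, -0.13 and -2.07 on the diet and 0.55, 0.89 and 0.22 with metformin. Its difference of 2.08 ± 0.495 (adjusted p = 0.969) came with a partner difference of 2.22 ± 0.494, and high fat diet replicate 2 stood well above the other diet arrays in both probes. Without that array the partner differed by 2.94 ± 0.310 (limma, adjusted p = 0.0393), the 1 partner called there. The same array stood high for chr15:59155169-59155533, a circle of 364 bases, at 0.15 against -1.29 and -1.35 on the other diet arrays and 0.75, 1.07 and 0.43 with metformin (1.58 ± 0.367, adjusted p = 0.969). The circles mmu_circ_0004921 and mmu_circ_0004919 differed by 1.05 ± 0.234 and 1.17 ± 0.298.

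Highest intensity did not go with a large difference. The 5 brightest circRNAs on the diet, mmu_circ_0014067, mmu_circ_0009091, mmu_circ_0004203, mmu_circ_0014873 and mmu_circ_0008792, had mean levels from 8.25 to 8.43 there. Their differences were 0.07 ± 0.158, 0.14 ± 0.146, 0.13 ± 0.168, -0.08 ± 0.214 and 0.02 ± 0.158, and the signs of all 5 turned under at least one alternative setting. The 95% interval reached at most 0.54 in size, the lower end for mmu_circ_0014873. On single arrays mmu_circ_0014067 read 8.68, 8.17 and 8.43 on the diet and 8.60, 8.55 and 8.36 with metformin, with overlap.

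Among circRNAs measured on all 9 arrays, 2 were well above background on all 3 metformin arrays and on none of the diet arrays, and none the other way round. The circle chr1:33935105-33940493 read -4.998, -5.84 and -4.54 on the diet, not well above background, and -4.95, -3.31 and -3.07 with metformin. The bound on its fold difference was 1.68 (limma on the difference, 1.35 ± 0.461, adjusted p = 0.969). Normexp background correction gave smaller differences, 0.25 ± 0.187 with 75th percentile scaling and 0.15 ± 0.168 with quantile normalization. Metformin replicate 1 lay among the diet values of this circle. For chr1:160509712-160510492 the readings were -5.58, -4.84 and -4.53 on the diet and -4.62, -4.77 and -3.43 with metformin. The bound was 1.36-fold (limma on the difference, 0.71 ± 0.351, adjusted p = 0.969), and the 2 normexp settings gave 0.23 ± 0.162 and 0.15 ± 0.142. That bound rests on metformin replicate 3, since the other metformin arrays lay below high fat diet replicate 3. Without metformin replicate 3 the difference was 0.29 ± 0.287, and within the column that held both groups it was -0.013 ± 0.186. The bound sets the metformin mean against the mean of the dim group's own values or, where higher, of the lowest signal well above background on each array. It has no error of its own, so it limits what the dim readings add but is no minimum of the difference.

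The log2 ratio of circle to partner was tested to separate what the circle probe read from what its partner read. None of 21258 ratios was called (limma, 0.0%, smallest adjusted p = 0.515), and 1043 (4.91%) reached p under 0.05 without adjustment, 365 higher (1.72%) and 678 lower (3.19%). Partner probes leaned the other way: 1007 (4.57%) had p under 0.05 without adjustment, with 748 higher (3.4%) and 259 lower (1.18%) and a median difference of 0.07. The 4 ratios named as higher by smallest p were those of mmu_circ_0005387 (0.50 ± 0.0918), mmu_circ_0014653 (0.73 ± 0.135), mmu_circ_0015159 (0.70 ± 0.164) and chr11:79828645-79839456 (0.40 ± 0.0951). For mmu_circ_0005387 the circle read -2.23, -2.54 and -2.33 on the diet and -1.94, -1.76 and -2.15 with metformin, while the partner read -2.89, -3.09 and -2.86 and then -3.05, -2.79 and -3.27. In that pair the circle differed by 0.41 ± 0.147 and the partner by -0.09 ± 0.162. For mmu_circ_0015159 the partner had the larger difference, -0.41 ± 0.169 beside 0.29 ± 0.186 for the circle.

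The 4 lower ratios were those of mmu_circ_0001493 (-0.51 ± 0.0959), chr14:57550926-57556512 (-0.44 ± 0.0950), chr13:107783243-107784022 (-0.54 ± 0.119) and chr1:63207454-63212941 (-0.67 ± 0.148). In the last pair the circle hardly differed, at 0.35, 0.17 and 0.18 on the diet and 0.35, 0.28 and 0.18 with metformin. Its partner read -2.85, -3.58 and -3.54 on the diet and -2.46, -2.67 and -2.72 with metformin, a difference of 0.71 ± 0.194. The chromosome 13 circle of 779 bases showed the same order, 0.28 ± 0.187 for the circle and 0.82 ± 0.214 for the partner. For the chromosome 14 circle the 2 probes differed in opposite directions, -0.26 ± 0.146 and 0.17 ± 0.152. All 8 ratios had adjusted p = 0.969.

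**Figure D3:**
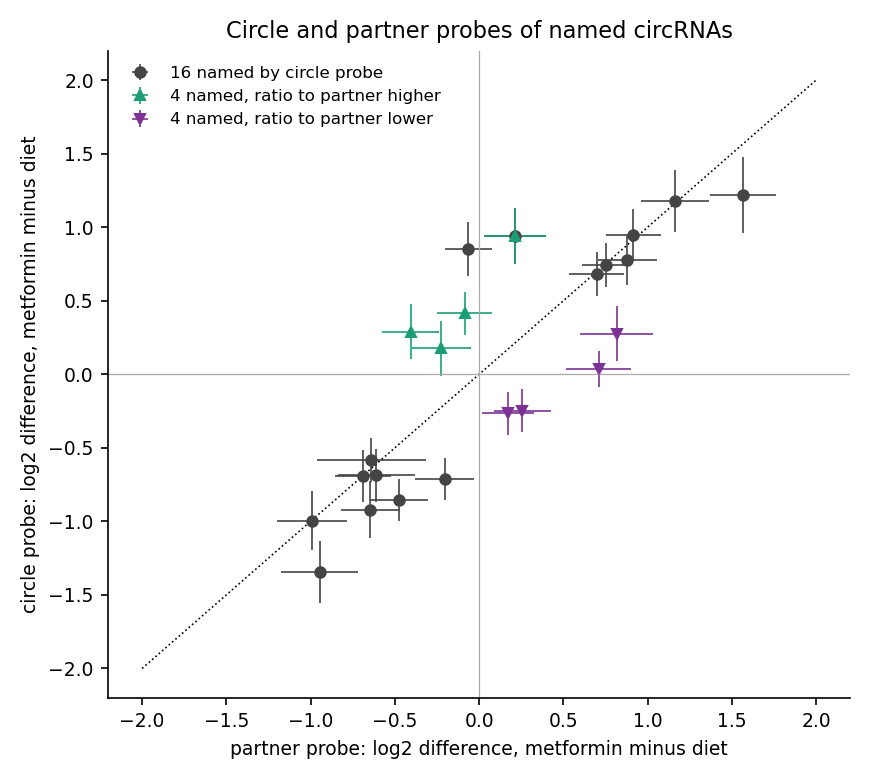
Difference between metformin and high fat diet in the circle probe (vertical, log2) against that in its partner probe (horizontal, log2) for the 16 circRNAs named by the circle probe and the 8 named by the ratio. Bars are standard errors and the dotted line marks equal differences; most of the 16 lie near the line, and those named by the ratio lie off it by construction.

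Position-named circles fell into 7858 loci when those that overlap were merged. The mean of the circle probes was tested for the 981 loci that held at least 3 circles measured on all arrays, 4533 circles together. No locus was called (limma, 0.0%, smallest adjusted p = 0.976), and 37 (3.77%) reached p under 0.05 without adjustment, 24 higher (2.45%) and 13 lower (1.33%). In 68 loci (6.93%) the groups did not overlap, 41 higher (4.18%) and 27 lower (2.75%). The 95% interval lay within a 2-fold change for 976 loci and within a 1.5-fold change for 922. The differences ran from -0.81 to 0.50. In 296 of the 981 loci all circles differed in one direction, 139 higher and 157 lower. Loci with as few as 3 circles are in this count, and it was not tested.

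The locus with the smallest p was chr12:87184728-87253540, where all 13 circles read higher with metformin, by 0.06 to 0.59. The mean of the locus read -1.51, -1.64 and -1.42 on the diet and -1.11, -1.07 and -1.22 with metformin, without overlap (0.39 ± 0.107, adjusted p = 0.976). All 10 tested partners read higher as well, by a mean of 0.44. The circle chr12:87204514-87219428 read 0.00, 0.18 and 0.53 on the diet and 0.73, 0.69 and 0.72 with metformin. From the same start, chr12:87204514-87224388 read 1.48, 1.64 and 1.53 and then 1.53, 1.32 and 1.99, a difference of 0.06 ± 0.167, the smallest in the locus. The last circle, chr12:87239943-87253540, read 0.75, 0.17 and 0.67 on the diet and 0.83, 1.14 and 1.02 with metformin.

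At chr15:41629020-41652124 all 3 circles start at the same base and end at different ones. The locus mean read 1.72, 1.67 and 1.63 on the diet and 1.99, 1.85 and 2.12 with metformin (0.31 ± 0.0960). The authors' deposited values, which depend on the partner readings, gave the locus -1.15 ± 0.990. The shortest, ending at 41633241, differed by 0.36, that ending at 41645272 by 0.47, and the longest, ending at 41652124, by 0.11. All 3 partners read higher. At chr4:82898890-82917122 all 3 circles read higher, by 0.29 to 0.52 (locus 0.43 ± 0.132). At chr8:91226204-91255715 4 of 5 did, with a locus difference of 0.34 ± 0.110. Its longest circle, chr8:91229125-91255715, read -4.59, -4.77 and -4.59 on the diet and -4.14, -3.92 and -3.66 with metformin, and its partner differed by -0.04. The reading of -4.77, on high fat diet replicate 2, was not well above background. The size of this circle's difference, which enters the locus mean, thus leans in part on that reading.

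Of the 4 loci named as lower, chr14:73662336-73687477 and chr10:66496819-66525819 had all of their 5 and 4 circles lower, with locus differences of -0.30 ± 0.105 and -0.27 ± 0.106. With the authors' deposited values, which depend on the partner readings, the chromosome 14 locus stood higher with metformin, by 1.35 ± 0.388. The full-length circle of the first, chr14:73662336-73687477, read -0.93, -1.01 and -0.92 on the diet and -1.18, -1.15 and -1.19 with metformin, without overlap, while its partner differed by 0.18. At chr2:94198908-94226338 the locus read -0.41, -0.34 and -0.65 on the diet and -0.79, -0.77 and -0.84 with metformin (-0.33 ± 0.108). At chr2:39055183-39066573 (-0.44 ± 0.151) the groups overlapped: diet pools read -0.73, -0.64 and -0.86 and metformin pools -0.85, -1.16 and -1.54. There the 2 shorter circles differed by -0.68 and -0.61 and the longest, chr2:39055183-39066573, by -0.02. Across these 4 loci the mean partner difference ran from -0.22 to -0.02, closer to 0 than the circles. All 8 loci had adjusted p = 0.976.

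**Figure D4:**
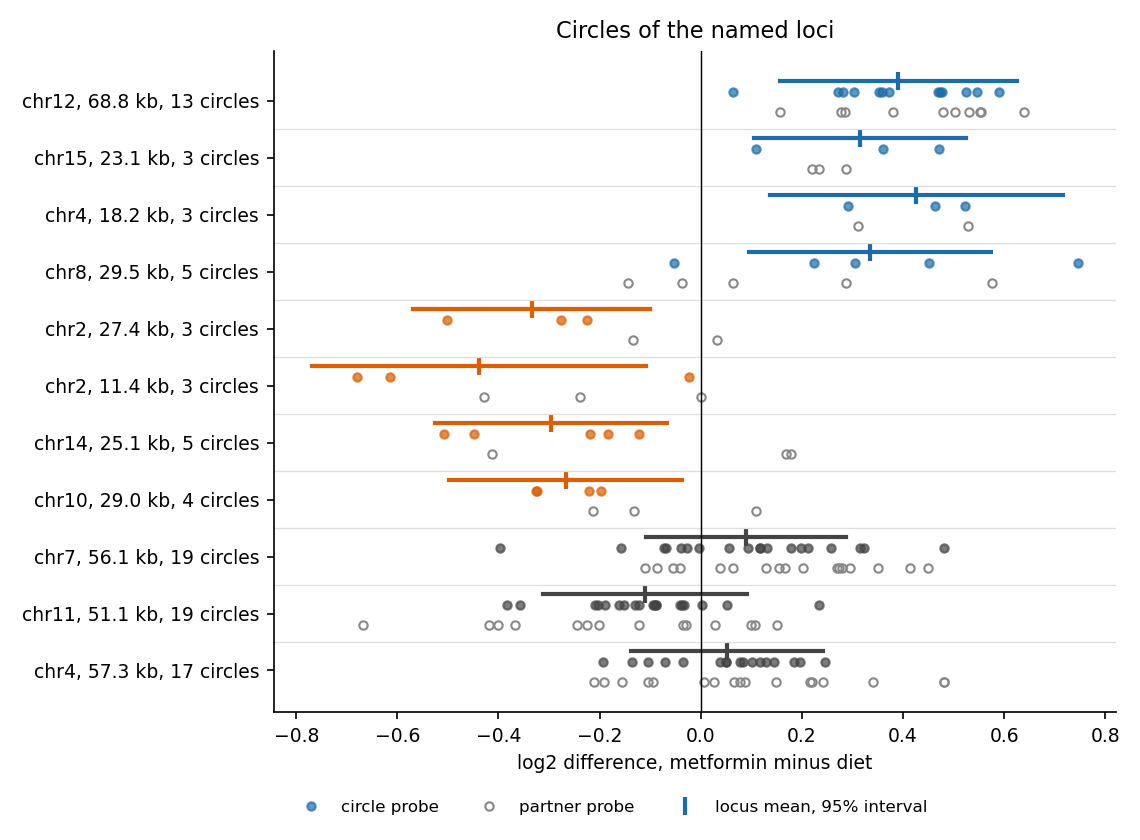
Differences between metformin and high fat diet (horizontal, log2) for every circle of the 4 loci named as higher (blue), the 4 named as lower (orange) and the 3 with the most circles (dark grey). Filled points are circle probes, open points partner probes, and the bar is the locus mean with its 95% interval; in the top locus all 13 filled points lie right of 0.

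The 3 loci with the most circles gave narrow intervals around 0. At chr7:80608522-80664594 the 19 circles differed by -0.40 to 0.48, 12 higher and 7 lower, with a locus difference of 0.09 ± 0.0906 (95% interval -0.11 to 0.29). At chr11:23270239-23321366 16 of 19 circles read lower, but the locus mean differed by -0.11 ± 0.0923 (-0.31 to 0.09) and the groups overlapped. The 17 circles of chr4:126545961-126603267 gave 0.05 ± 0.0869 (-0.14 to 0.24).

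One further locus showed how much a single array could decide. The 3 circles of chr2:113422255-113443446, singled out after its values were seen, had a locus mean of -3.19, -2.87 and -2.91 on the diet and of -2.17, -1.97 and -3.33 with metformin. Metformin replicates 1 and 2 stood above every diet array and replicate 3 below every one. Metformin replicate 3 lay on a slide of its own, so its pool and its slide cannot be told apart. The difference was 0.50 ± 0.272 (adjusted p = 0.976), and without metformin replicate 3 it was 0.92 ± 0.137 (limma, adjusted p = 0.0407), the 1 locus called there.

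Circles that shared a back-splice end differed more alike than other circles of a locus. Over 3693 such pairs 64.1% had differences of one sign and the median gap between them was 0.12, with a correlation of 0.39 across pairs. For 8377 pairs of one locus without a common end these were 58.7%, 0.14 and 0.30, and for 6376 pairs from neighbouring loci 53.1%, 0.17 and 0.06. The pairs share arrays and circles, so these values carry no test. Circles in the 71 loci with at least 10 circles had a median difference of -0.0050, against 0.03 over all tested. By span, the median was 0.04 for circles under 1 kb, 0.01 for those of 1 to 10 kb and 0.01 for longer ones, with 3.04%, 3.65% and 4.56% at an unadjusted p under 0.05, beside 3.89% over all.

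The authors' deposited log2 values gave another list. Fitted in the same way they called 14 circRNAs (limma, 14 of 25864 tested), all of which missed the threshold on the intensities. For 13 of these, 8 higher and 5 lower with metformin, every array of one group stood at the deposited floor of -3.32 and none of the other did. Over these 6 arrays 100% of values whose circle probe was not above its partner stood at the floor, and 0.0259% of those whose circle probe was above it. The floor held 17.5% to 20.5% of the tested circRNAs on each of the 6 arrays. The 13 had deposited differences of 7.03 to 12.8 in size, but on the intensities theirs ran from -0.76 to 0.73, and 11 of the 13 were under 0.5 in size.

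The circle chr19:26845428-26851928 had the largest deposited difference, 12.82 ± 0.643 (adjusted p = 0.00203). Its deposited values were -3.32 on all diet arrays and 7.87, 10.39 and 10.25 with metformin. On the intensities it read 2.91, 3.15 and 2.80 on the diet and 2.96 and 2.92 on the 2 metformin arrays with an unflagged spot (-0.01 ± 0.154), and the partner read 2.98, 3.30 and 2.84 and then 2.90, 2.61 and 2.62. The circle thus stood level, and the partner passed from just above it to below it. For mmu_circ_0003996 the deposited values were 6.43, 5.09 and 6.83 on the diet and -3.32 on all metformin arrays, while the circle read -0.21, -0.17 and -0.01 and then -0.17, -0.30 and -0.09 on the intensities. The circle Fan_16_148_1379 was one of the 2 whose intensities also differed by over 0.5, at -4.29, -3.77 and -4.02 on the diet and -3.17, -3.38 and -3.34 with metformin (0.73 ± 0.152, adjusted p = 0.705). It was well above background on 1 of the 3 diet arrays and on all 3 metformin arrays, so the size of that difference leans on diet readings not above background. The other was mmu_circ_0007004, at -0.43, -0.33 and -0.35 on the diet and -0.66, -1.52 and -1.20 with metformin (-0.76 ± 0.232, adjusted p = 0.969).

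The 1 deposited call with no array at the floor was mmu_circ_0010188, at 6.31, 6.56 and 6.07 on the diet and 4.60, 4.47 and 4.50 with metformin. Its intensities read -2.81, -2.68 and -3.10 and then -3.56, -3.74 and -3.69 (-0.80 ± 0.141, adjusted p = 0.440). The partner differed the other way, at -4.52, -4.85 and -4.81 on the diet and -4.24, -4.43 and -4.05 with metformin. Both scales put every metformin pool below every diet pool. The circle was well above background on 3 diet arrays and 2 metformin arrays, so the size of the intensity difference leans in part on a metformin reading not well above background. These 14 were singled out by the deposited values.

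**Figure D5:**
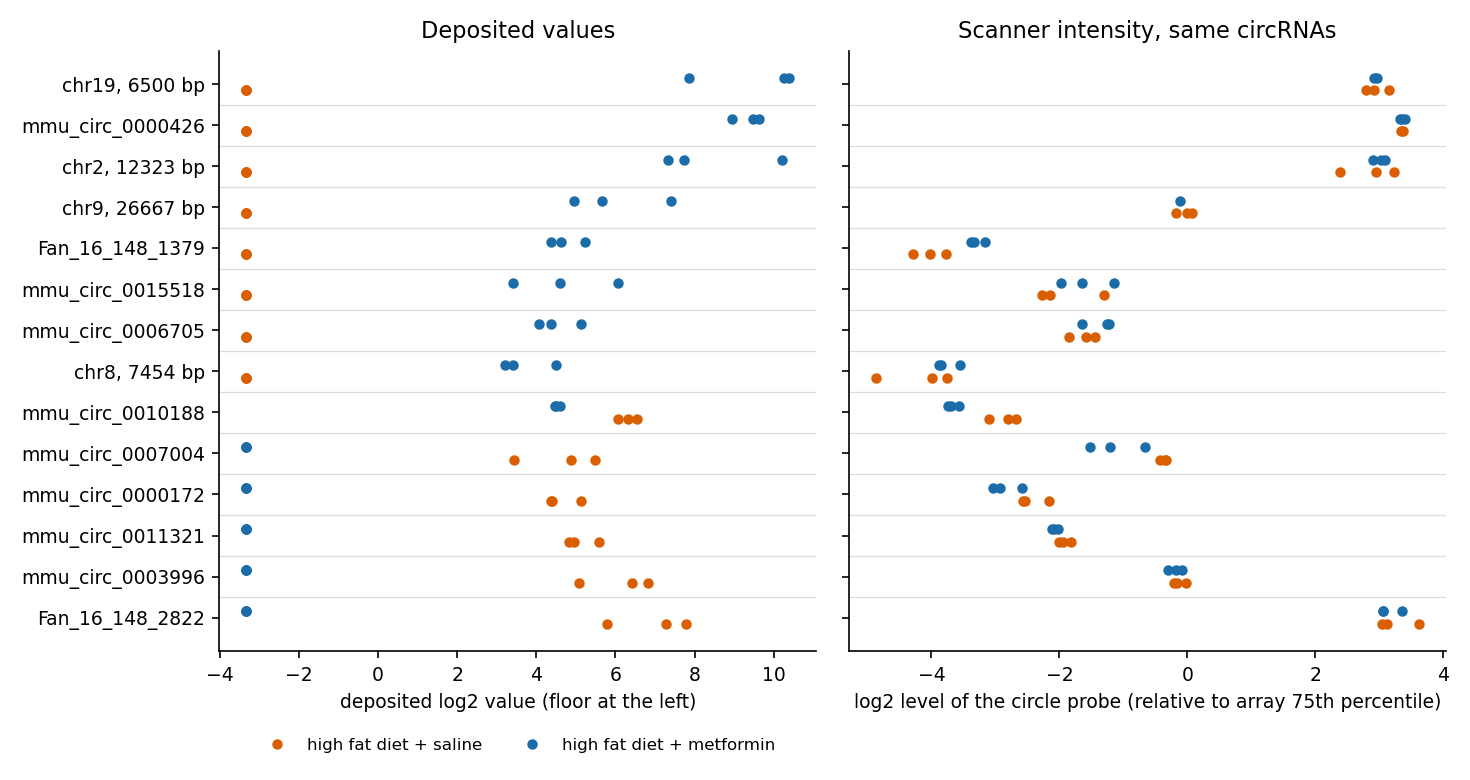
The 14 circRNAs called from the authors' deposited log2 values, with those values on the left (the floor is the column of points at the left edge) and the levels of the circle probe from the scanner intensities on the right (log2 relative to the array's 75th percentile). Points are arrays, orange for high fat diet and blue for metformin; groups that are far apart on the left mostly lie close together on the right.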

How the data were processed

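Per the file headers, 1-colour Agilent arrays were extracted with Feature Extraction 11.5.1.1 (10.7 in the submitters' processing notes), and the processed intensity they deposited has the background removed, with no scaling between arrays. A value table the authors deposited holds log2 values; its scale is not stated and its floor was read from the values. Per array, 41 to 667 circRNA spots flagged as outliers were left out, spots of a probe averaged, log2 taken and the 75th percentile subtracted. Probes well above background on all 3 arrays of a group were tested with limma 3.58.1 in R 4.3.3 (lmFit, eBayes, all 9 arrays, 6 residual and 5.74 prior degrees of freedom), adjusted by Benjamini-Hochberg over all circRNAs. Locus means used only circRNAs measured on all 9 arrays, a departure from the design made after the data were seen. Normexp used the deposited raw median intensities, since no mean signal is in the files. Named circRNAs were the 8 higher and 8 lower with the smallest p among those well above background on all 6 arrays, the 5 brightest, up to 3 per direction detected in one group only, and 4 ratios and 4 loci per direction. Members, lists and rules were chosen with earlier results of these data known. The fit was tested on simulated data. Lists of host genes and cell markers were not used.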

Additional observations from a re-analysis of the deposited data

Results flagged for a closer look

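In the probes for foreign transcripts, which no comparison above uses, the mean log2 level of Kana3.0 with metformin was -3.30, above that of the chow controls at -3.60, and the lowest metformin array (-3.47) stood above the highest control array (-3.51). On the high fat diet its mean was -3.38 and its arrays ran from -3.94 to -2.92, overlapping both. Kana3.0 passed the scanner's background test on all 3 arrays of either diet group. It was the only foreign-transcript probe with all arrays of a diet group above every control array. It was picked for that from all such probes, and the separation was not tested. In this search for results to flag, groups of 3 arrays were not screened for single outlying arrays.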

How the results depend on the processing

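One limit was the size of the design: with 3 pools a group the median half-width of a 95% interval was 0.36, and dim probes were less precise. The count of called circRNAs, 0 in the main fit, was 14 with the authors' deposited values and 1 with the array column as a covariate. Leaving out single arrays gave 0 to 1. The covariate was the column number alone, so metformin replicate 3, on a slide of its own, shared a column with arrays of the other slide. The 1 circRNA was chr16:40753629-40753947, with an adjusted p (limma) of 0.0116 under the covariate and 0.0219 without high fat diet replicate 1. Under the covariate its difference stayed at 2.12, as in the main fit, and the SE was 0.179 against 0.309. This circle was well above background on 0 diet arrays and 3 metformin arrays, so it passed the filter with its metformin arrays. Its adjusted p-values set metformin readings against diet readings not above background. It has only a bound, 1.92-fold higher with metformin, which has no error of its own. The unadjusted count of 1006 was 1513 within 1 column and 710 to 1762 without single arrays. Loci called were 0 to 1 without single arrays. Ratios called were 1 with normexp and 75th percentile scaling, with normexp and quantile normalization and with probes required to pass the background test on all 9 arrays; this was mmu_circ_0002724, with values on 1 metformin array. Partner probes called were 1 under those 3 settings and with the replicate block, 2 with trend and robust fitting and 0 to 1 without single arrays. Intervals within a 2-fold change numbered 15084 with the deposited values. The median difference was 0.0100 with normexp and quantile normalization, 0 with the deposited values, 0.080 within 1 column and 0.0064 to 0.055 without single arrays. The difference in the share of probes well above background was -1.06 to 5.23 without single arrays.

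The main fit did not pair arrays by replicate number. Same-numbered diet and metformin arrays correlated at 0.06, 0.09 and 0.18 in their deviations from the group means, and differently numbered ones at -0.22 to 0.11. These few values do not settle whether the numbers pair the arrays. With the replicate block 0 circRNAs were called and 1087 had an unadjusted p under 0.05.

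Among named circRNAs and loci, signs turned as follows. The deposited values stood at the floor wherever a circle was not above its partner. They are thus another measure than the intensities, and a sign turned there is not that of the same difference. With the deposited values mmu_circ_0012020 differed by -1.60, mmu_circ_0014873 by 1.14, chr13:107783243-107784022 by -0.73 and chr1:63207454-63212941 by -0.046, and the loci chr15:41629020-41652124 by -1.15, chr14:73662336-73687477 by 1.35, chr7:80608522-80664594 by -0.017 and chr4:126545961-126603267 by -0.0026. Normexp with quantile normalization gave -0.067 for mmu_circ_0014067 and -0.0084 for mmu_circ_0009091, and quantile normalization -0.039 and -0.00064. Array weights gave -0.012 for mmu_circ_0004203 and -0.079 for mmu_circ_0008792. Within 1 column mmu_circ_0008792 differed by -0.023 and chr1:160509712-160510492 by -0.013. Without single arrays the ranges were -0.055 to 0.20 for mmu_circ_0014067, -0.0015 to 0.23 for mmu_circ_0009091, -0.018 to 0.27 for mmu_circ_0004203, -0.29 to 0.16 for mmu_circ_0014873, -0.074 to 0.13 for mmu_circ_0008792 and -0.0041 to 0.092 for chr1:63207454-63212941. The cause was not tested.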
